A study of Canis lupus familiaris with 6 samples.

Results

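The transcripts described here encode the pyruvate dehydrogenase kinases PDK1, PDK2, PDK3 and PDK4, the E1 subunits PDHA1 and PDHB of the pyruvate dehydrogenase complex, the phosphatases PDP1 and PDP2, and the lactate dehydrogenase subunits LDHA and LDHB. The members were every non-control probe whose gene name in the array design equals one of these symbols, which gave 20 of 43603 probes and 10 of 14228 named genes. Of these probes, 17 passed the filter on dim signals and were tested, and each of the 10 genes kept at least 1 of them. The set had been picked because PDK4 was thought to rise in RasV12 cells among normal cells. In these arrays the surrounding cells were not normal but carried β-cat ΔN, and the mean PDK4 signal of the mix culture was not higher than that of the single culture.

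All 6 samples were Madin-Darby canine kidney (MDCK) cells, a dog epithelial line, and all carried the same pair of alterations. One was mCherry-tagged β-catenin Δ131 (β-cat ΔN), a truncated form that escapes degradation and keeps Wnt signaling on, and the other was GFP-tagged RasV12, an active Ras oncoprotein made from a tetracycline-inducible construct (pTR). These β-cat ΔN/RasV12 cells were grown alone (single culture, 3 arrays) or with 10 β-cat ΔN cells lacking RasV12 for each of them (mix culture, 3 arrays), on collagen, with tetracycline for 24 h in both groups. GFP-positive cells were then sorted and their RNA was hybridised, so the design asks how the neighbours altered the RasV12 cells and holds neither β-cat ΔN cells alone nor cells without tetracycline. No source used here says whether the replicates were separate cultures, so p-values measure the spread between these samples, which may be technical. Nor does any say whether the engineered line was 1 clone.

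Pyruvate, the end product of glycolysis, has competing fates that this set of enzymes governs. The pyruvate dehydrogenase complex carries it into the mitochondrial citric acid cycle as acetyl-CoA. PDKs switch the complex off by phosphorylating the E1α subunit, the product of PDHA1, and PDPs switch it on again by removing the phosphate. Lactate dehydrogenase, a tetramer of LDHA and LDHB subunits, instead reduces pyruvate to lactate. PDK1 and LDHA are known targets of hypoxia-inducible factor HIF-1, and PDK4 is known as a fasting gene driven by PPAR, FOXO and glucocorticoid signaling in heart, skeletal muscle and kidney.

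The kinases are close relatives, so the probes that stand for them were compared first. Printed 5′ to 3′ in lower case, since no stretch within them is singled out, the following 60-base probes were designed against PDK2 (chr9:26114429-26114488, plus strand), PDK3 (chrX:20053420-20053479, plus strand) and PDK4 (chr14:20835157-20835381 and chr14:20827966-20828025, minus strand) on CanFam3.1. Each of these probes reads through in at least 1 frame without a stop codon, as do most member probes, and both of the PDK4 probes stayed at background.
PDK2 probe 2: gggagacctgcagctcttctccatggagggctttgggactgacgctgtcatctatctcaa
PDK3 probe 1: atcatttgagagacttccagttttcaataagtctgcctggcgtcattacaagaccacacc
PDK4 probe 2: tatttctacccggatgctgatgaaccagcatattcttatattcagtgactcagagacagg
PDK4 probe 3: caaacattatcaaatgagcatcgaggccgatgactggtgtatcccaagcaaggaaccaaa
The interval of PDK4 probe 2 spans 225 genomic bases for its 60 bases, so its target is split in the genome. Across the 177 pairs of probes for different member genes, the longest run of shared bases was 11, so the kinase probes were distinct from each other. The probes were not compared with the transcripts of the other kinases, so whether each reads its own kinase alone was not tested. The longest run within a gene was 49 bases, for LDHA probes 1 and 2, whose values are close to a repeat measurement. Exon and untranslated-region annotation was not used here.

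Signals are given below as normalised log2 signals, the log2 of the background-subtracted intensity minus the 75th percentile of the array, so that 0 is that percentile. Changes are mix culture minus single culture. Replicate 1 of each group was scanned at 3 micrometres per pixel, and replicates 2 and 3 at 5, with a later software version. These sets are called slide 1 and slide 2 here, a division inferred from those settings, since the sample titles name no slide. The change within each slide is given beside the pooled one. Between 61.1% and 65.7% of spots on an array were well above background, and none was saturated. With the culture in the model, limma called 47.2% of tested probes as different between slides at an adjusted p under 0.05. Among the brightest probes of the member genes this applied to PDK2 (0.93 higher on slide 2, limma adjusted p = 0.00115) and PDP2 (0.42 higher, limma adjusted p = 0.0383). Of the other member probes it applied to PDK2 probe 2 (1.35 higher on slide 2), PDHA1 probe 2 (a difference of -0.74) and LDHA probe 2 (a difference of -0.37). The sorted cells had the marker profile of an epithelium. All 7 epithelial marker genes on the array were well above background on each array, with a summed linear level of 464 to 573 in single culture and 384 to 470 in mix culture. The summed level of fibroblast, leukocyte and endothelial markers did not exceed 2.07 on any array. In bulk RNA, fewer cells with a transcript and less of it per cell cannot be told apart.

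No member gene was called. By limma with Benjamini-Hochberg adjustment, 0 of 10 member genes and 0 of 17 member probes passed an adjusted p of 0.05, beside 0.883% of all tested probes (0.815% called higher and 0.0676% called lower). At an unadjusted p under 0.05 the counts were 0 genes and 1 probe, PDP1 probe 2, against 8.71% of all tested probes. Taking the brightest tested probe of each gene, 3 members had a higher mean in mix culture and 7 a lower one, from -0.39 for PDHA1 to 0.35 for PDK2, with a median of -0.17 against -0.05 over all tested probes. For 9 of the 10 genes the 95% interval of the change lay within 2-fold in either direction, as it did for 78.3% of all tested probes, and PDK2 was the exception.

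**Figure D1:**
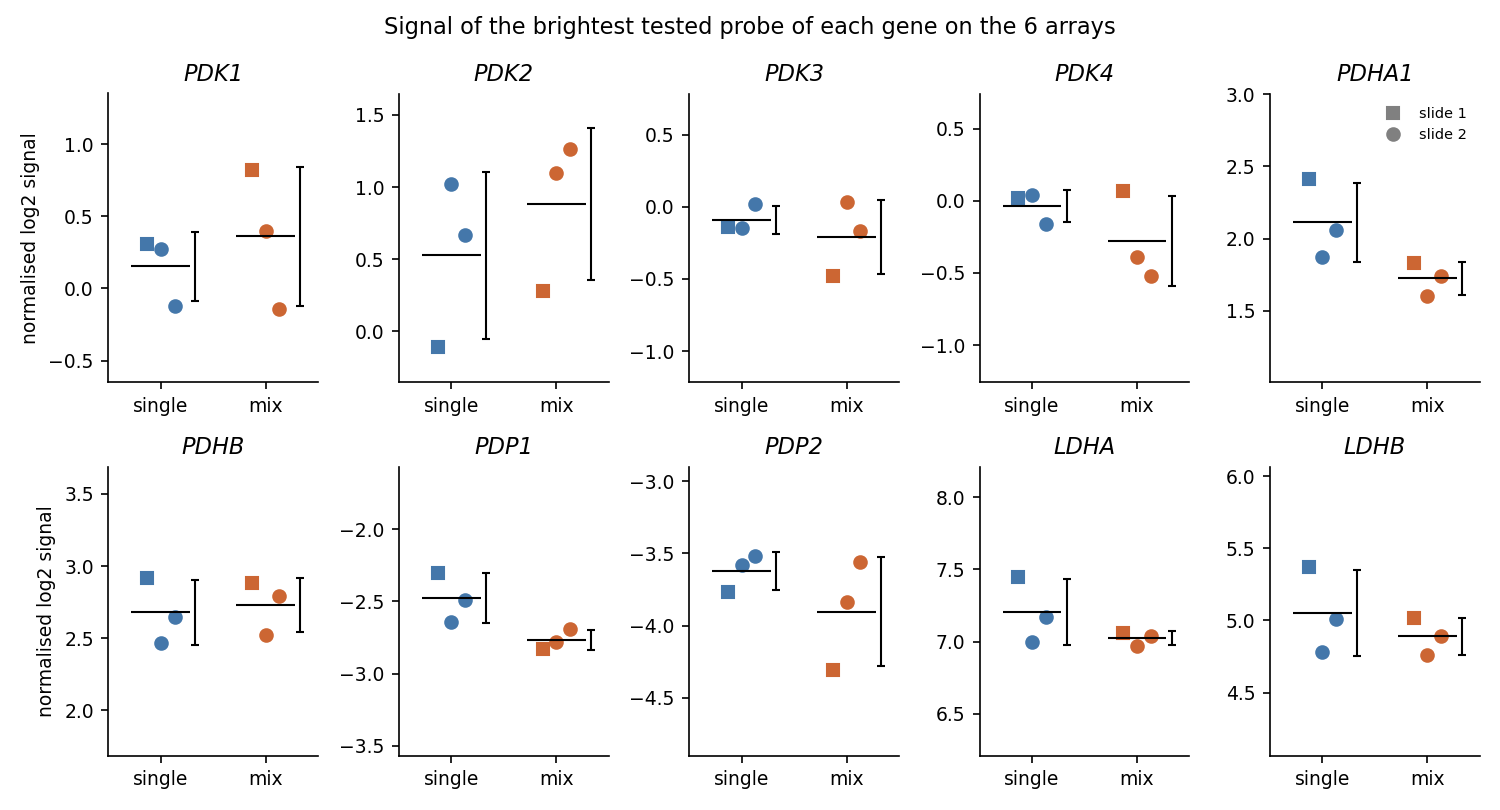
Normalised log2 signal (vertical axes, each spanning 2 log2 units) of the brightest tested probe of each member gene on the 3 single culture and 3 mix culture arrays. Squares are slide 1 and circles slide 2, horizontal lines are means and error bars are SDs over 3 arrays. PDHA1 and PDP1 are the genes whose groups do not overlap, with the mix culture lower in both.

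PDK4, the kinase most tied to fasting, was detected by only 1 of its 3 probes. PDK4 probe 1 (chr14:20825924-20825983, minus strand) read 208, 171 and 154 intensity units on single culture replicates 1, 2 and 3, and 245, 138 and 112 units on the mix culture replicates. As normalised log2 signals these were 0.02, 0.04 and -0.16 in single culture against 0.07, -0.39 and -0.52 in mix culture. The mix array of slide 1 was the highest of the 6 and the mix arrays of slide 2 were the lowest, so the groups overlapped. The mean went from -0.04 ± 0.11 to -0.28 ± 0.31 (SD, n = 3), a change of -0.24 with an SE of 0.20 and a 95% interval from -0.71 to 0.22, or 0.844-fold (0.611 to 1.17). No p-value is given for PDK4, because the set was chosen for it. Its change was 0.06 within slide 1 and -0.39 within slide 2, and therefore differed in sign between them.

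The other PDK4 probes were at background on all 6 arrays, none of their spots being flagged as well above it. Probes 2 and 3 read between 1.12 and 4.17 units, while the dimmest signals that passed as well above background were 4.19 to 4.48 units, depending on the array. Probe 1 lies 1982 bases beyond probe 3 in the direction of transcription, and holds stop codons in every reading frame of its strand. The dim probes have only a bound in both groups and give no fold change. The signal of probe 1 is thus the one PDK4 measurement in these arrays, and its link to the transcripts that probes 2 and 3 were designed on was not tested.

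**Figure D2:**
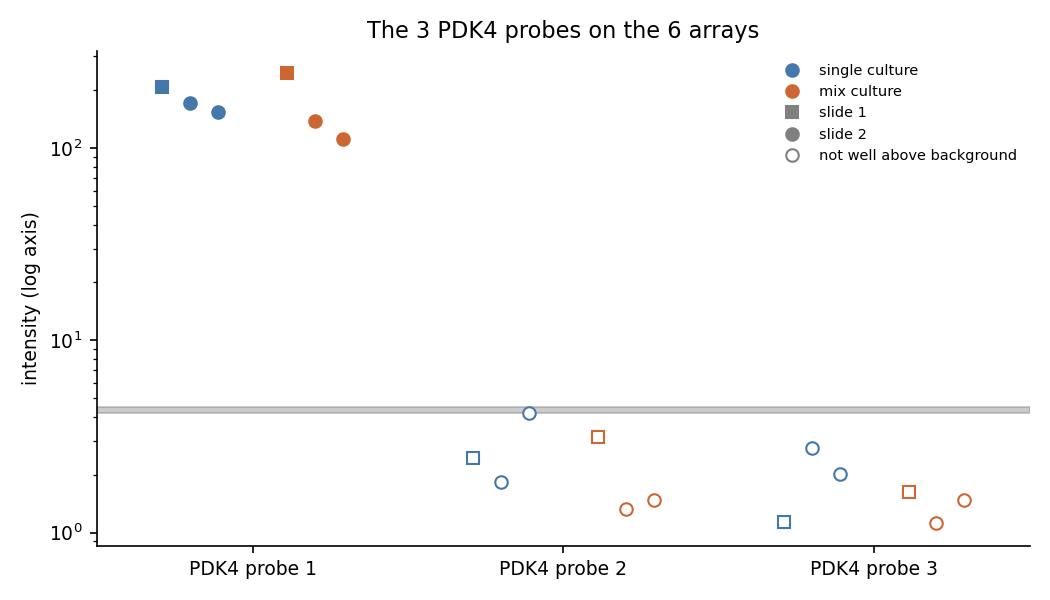
Background-subtracted intensity (vertical log axis) of the 3 PDK4 probes on the single culture and mix culture arrays, with squares for slide 1 and circles for slide 2. Open symbols are not well above background, and the grey band marks the lowest well-above-background signals of the arrays, 4.19 to 4.48 units. Probe 1 read 112 to 245 units, and every reading of the other probes was 4.17 units or less.

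The genes whose pattern over the 6 arrays was most like that of PDK4 probe 1 were IQCF2, PHACTR2, CCBL2, NBEA and VPS52. Likeness was the root mean square difference between profiles, each centred on its own mean, and was 0.04 log2 units for IQCF2, 0.05 for PHACTR2 and 0.06 for the other three, out of 9505 candidate genes. Over only 6 arrays on a pair of slides, such a ranking describes these arrays alone.

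Among the other kinases, PDK2 is an isoform found in most tissues, and its values were spread widely between slides. PDK2 probe 1 read -0.11, 1.02 and 0.67 in single culture and 0.28, 1.1 and 1.26 in mix culture. The groups overlapped because the slide 1 array was by far the lowest in each, whereas within slide 1, and within slide 2, the mix arrays lay above the single culture arrays. The change was 0.35 (SE 0.36, 95% interval -0.51 to 1.21, limma adjusted p = 0.904), being 0.39 on slide 1 and 0.34 on slide 2. It was 0.04 when single culture replicate 1 was left out and 0.65 when mix culture replicate 1 was, the ends of the leave-one-out range. PDK2 probe 2 had a value of 0.38 (SE 0.50), made up of 0.25 on slide 1 and 0.44 on slide 2. With the slide as a block the SE of probe 1 went from 0.36 to 0.12, and limma's adjusted p was 0.128 for probe 1 and 0.114 for probe 2, still short of the threshold.

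PDK1, the hypoxia-responsive kinase, read 0.31, 0.27 and -0.12 in single culture and 0.82, 0.40 and -0.14 in mix culture. Only the mix array of slide 1 stood above the others. The change of 0.21 (SE 0.27, 95% interval -0.42 to 0.85, limma adjusted p = 0.938) was 0.52 on slide 1 and 0.06 on slide 2, and without mix culture replicate 1 it was -0.02. PDK1 probe 2 was well above background on 2 of 3 arrays in each group and was not tested. PDK3, whose gene is on the X chromosome, read -0.14, -0.15 and 0.02 in single culture and -0.48, 0.03 and -0.17 in mix culture. Its change was -0.11 (SE 0.18, 95% interval -0.54 to 0.31, limma adjusted p = 0.956), with the groups overlapping and no difference on slide 2 (0.00).

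The kinases' substrate, E1α, had the most negative change among the 10 genes, which was not called. PDHA1 probe 1 read 2.41, 1.87 and 2.06 in single culture and 1.83, 1.60 and 1.74 in mix culture, so that each mix array lay below each single culture array. The mean went from 2.11 ± 0.28 to 1.73 ± 0.12 (SD, n = 3), a change of -0.39 (SE 0.19, 95% interval -0.83 to 0.05), or 0.765-fold, which did not pass (limma adjusted p = 0.665). It was -0.58 on slide 1 and -0.29 on slide 2. The remaining PDHA1 probes had the same sign, at -0.63 (SE 0.32) for probe 2 and -0.27 (SE 0.16) for probe 3, and both had lower means in mix culture within each slide. Of all tested probes, 83.8% had a smaller change in size than PDHA1 probe 1. With the slide as a block, limma's adjusted p was 0.0926, 0.0549 and 0.194 for probes 1, 2 and 3. In the log2 table that the authors deposited, PDHA1 was the 1 member gene called by its brightest probe (-0.37, limma adjusted p = 0.0297). Of the other member probes, PDHA1 probe 2 and PDP1 probe 2 were also called there. That table is centred within each slide, a step whose degrees of freedom the fit does not count. In it, 4077 of 26623 tested probes were called.

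PDHB, which encodes the E1β partner of that subunit, read 2.92, 2.47 and 2.65 in single culture and 2.88, 2.52 and 2.79 in mix culture. The groups overlapped almost fully. The change was 0.05 for each of its probes (SE 0.19; probe 1 95% interval -0.39 to 0.49, limma adjusted p = 0.981).

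The phosphatases that reactivate the complex had lower means in mix culture. PDP1 probe 1 read -2.30, -2.64 and -2.49 in single culture and -2.83, -2.78 and -2.69 in mix culture. PDP1 probe 2 (chr29:38789720-38789779, next to probe 1 at chr29:38789646-38789705, both plus strand) read -4.01, -4.57 and -4.32 against -4.62, -5.02 and -4.77. For both probes the mix arrays lay below the single culture arrays without overlap. The changes were -0.30 (SE 0.16, 95% interval -0.67 to 0.07, limma adjusted p = 0.716) and -0.50 (SE 0.20, 95% interval -0.98 to -0.03, limma adjusted p = 0.541). Probe 2 was the member probe nearest to a call with the slide as a block, at a limma adjusted p of 0.0502. It was dim, at 7.04 to 12.7 units in single culture and 5.55 to 9.46 units in mix culture. The lowest signals well above background were 4.19 to 4.48 units. PDP2 read -3.77, -3.58 and -3.52 in single culture and -4.31, -3.84 and -3.56 in mix culture, which overlapped, with a change of -0.28 (SE 0.22, 95% interval -0.80 to 0.24, limma adjusted p = 0.85). The size of these differences depended on the background correction, being -0.12 for PDP1 probe 1 and -0.07 for PDP2 with normexp. Without mix culture replicate 1, PDP2 was at -0.08.

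In total, 4 of the 17 tested member probes, from PDHA1 and PDP1, had groups that did not overlap, all with the mix culture lower. Of all tested probes, 16.5% did not overlap, 8.66% with the mix culture lower and 7.85% with it higher. With the slide as a block, limma called 7.2% of all tested probes (3.98% higher and 3.22% lower) and 0 of the 10 member genes, with 3 genes and 6 probes at an unadjusted p under 0.05, where 25.9% of all tested probes lay. With the replicate number as a block, 5.25% of tested probes and 0 member genes were called.

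**Figure D3:**
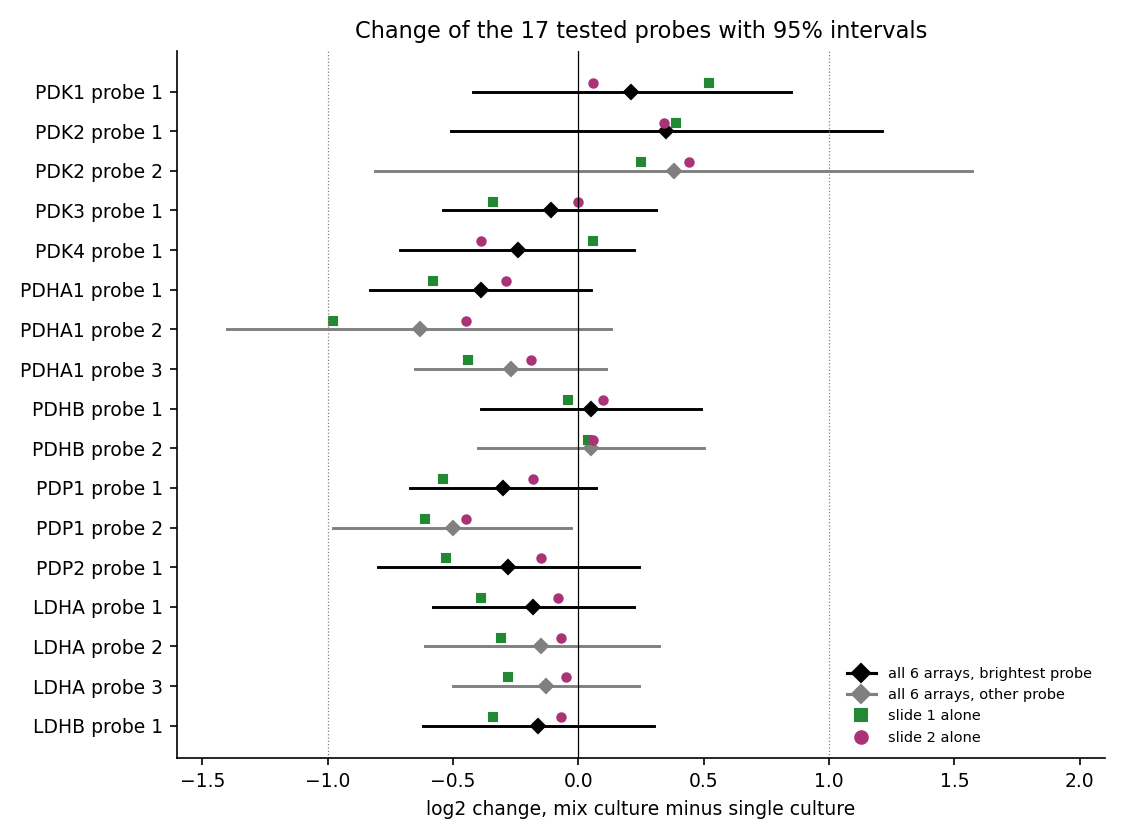
Log2 change (horizontal axis, mix culture minus single culture) of the 17 tested member probes with 95% limma intervals, diamonds for all 6 arrays, squares for slide 1 alone and circles for slide 2 alone. Dotted lines mark 2-fold. PDP1 probe 2 is the one probe whose interval leaves out 0 (-0.98 to -0.03), and PDK4 probe 1 has slide values of opposite sign (0.06 and -0.39).

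The lactate dehydrogenase transcripts were well above background on every array, and neither was called. LDHA probe 1 read 7.45, 7.00 and 7.17 in single culture and 7.06, 6.97 and 7.04 in mix culture. Only the slide 1 single culture array stood apart, above the others. The change was -0.18 (SE 0.17, 95% interval -0.58 to 0.22, limma adjusted p = 0.885), -0.39 on slide 1 and -0.08 on slide 2, and it was -0.01 after quantile normalisation. LDHA probes 2 and 3 had changes of -0.15 and -0.13. LDHB, the subunit that prevails in heart, read 5.37, 4.78 and 5.01 against 5.02, 4.76 and 4.89, with a change of -0.16 (SE 0.19, 95% interval -0.62 to 0.30, limma adjusted p = 0.932).

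The balance of the subunits was tested as the LDHA minus LDHB difference within each array. For single culture its mean was 2.15 ± 0.07, and for mix culture 2.13 ± 0.09 (SD, n = 3). These differed by -0.02 (two-sided exact permutation p = 0.7), where the smallest p that 3 against 3 arrays allow is 0.1. Paired by replicate number, the difference of -0.02 had an exact p of 0.25, the smallest that 3 pairs allow. The groups overlapped, with values from 2.08 to 2.21 in single culture and from 2.03 to 2.21 in mix culture.

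The genes around this step likewise gave no call. All 7 partner genes of the complex, from its core to its lipoylation enzymes, were tested, and 0 were called. DLD, the shared E3 subunit, and PDHX, the E3-binding protein, had the largest changes (0.22 ± 0.21 and -0.19 ± 0.21, SE). For pyruvate and lactate transport and side reactions, 16 of 19 genes were on the array, 11 were tested and 0 were called. The largest changes there were -0.56 (SE 0.37) for GPT2, a mitochondrial alanine aminotransferase, and -0.47 (SE 0.21) for SLC5A12, a sodium-coupled lactate carrier of kidney tubule. Of 6 tested genes for related mitochondrial dehydrogenases and their kinase, 0 were called, with -0.31 (SE 0.16) for BCKDK, which inactivates the branched-chain dehydrogenase much as PDKs do theirs, and 0.26 (SE 0.15) for DBT, a core subunit of that dehydrogenase. The medians of these lists were -0.01, -0.13 and 0.03.

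The lists of genes known to share regulators with PDK4 held the calls made around the set. Among 20 tested genes of PPAR signaling and fatty acid oxidation, 1 was called higher, PPARGC1A, the coactivator PGC-1α. Its called probe stayed at background in single culture (0.911, 0.911 and 1.08 units) but passed well above it on each mix array (14.6, 17 and 16.4 units), so it rose at least 3.6-fold (limma adjusted p = 0.000978). That probe passed the filter through the mix arrays alone, and its p-value rests on single culture values at background. The other 4 PPARGC1A probes were not well above background in mix culture. Of these, 1 was well above it on single culture replicate 1 (16.8 units), as bright as the called probe in mix culture. With the slide as a block, limma also called PPARA higher (1.23, adjusted p = 0.00964) and PPARG lower (-0.45, adjusted p = 0.0407), both of them lipid-sensing nuclear receptors. The PPARA probe was well above background on 3 mix arrays but on only 1 single culture array, so its change is taken partly against background. A second PPARA probe was not well above background on any array. Among 19 tested FOXO and glucocorticoid targets, 1 was called higher, PCK1, the enzyme that commits oxaloacetate to gluconeogenesis. PCK1 read 45.9, 35.2 and 28.9 units in single culture and 1080, 922 and 523 units in mix culture, and rose by 4.42 on the log2 scale (SE 0.22, limma adjusted p = 0.000614). Of its other probes, 1 was called (4.48, limma adjusted p = 0.00233) and 1 was not (1.73, limma adjusted p = 0.0545), each well above background on 1 single culture array. At the first of these probes every mix array was far brighter than every single culture array, on both slides. With the slide as a block, 4 genes of this list were called higher by limma and 2 lower. Of all tested probes, that fit called 3.98% higher and 3.22% lower, and the list was chosen with earlier results of these data known. Beside PCK1, the list genes called higher were CITED2 (1.12, adjusted p = 0.0034), DUSP1 (1.03, adjusted p = 0.0102) and SGK1 (0.85, adjusted p = 0.00349). Those called lower were KLF9 (-1.22, adjusted p = 0.00159) and TRIB1 (-0.58, adjusted p = 0.0406). A second SGK1 probe, well above background on each array, changed by only 0.18. Without a block, limma's adjusted p was 0.785 for the first SGK1 probe and 0.918 for the second. At replicate 1 the second SGK1 probe was lower in mix culture (-1.59 against -1.33). By the methods' t-test neither PPARGC1A nor PCK1 was called. The list medians were 0.04 and 0.21. PDK4 probe 1 differed by -0.24 on the same arrays.

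Of 21 tested HIF-1 targets, counted without PDK1 and LDHA, 0 were called, and the list median was -0.10. NDRG1, a stress-induced gene, and DDIT4, an inhibitor of mTOR signaling, had the largest values at -1.07 (SE 0.25, limma adjusted p = 0.175) and -0.88 (SE 0.33, limma adjusted p = 0.502). With the slide as a block both were called lower (limma adjusted p = 0.0143 and 0.0407), and ADM was called higher (0.78, limma adjusted p = 0.00673). HIF1A itself had a change of 0.03 (SE 0.15).

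Muscle is a tissue rich in PDK4, and most probes of its marker genes were at background in the sorted cells. Only 2 of the 4 muscle marker genes were on the array, and 13 of their 17 probes were not well above background on any array. The summed level was 0.145 to 0.188 in single culture and 0.218 to 0.23 in mix culture. TNNT2, the cardiac form of troponin T, had a probe called higher, by at least 2.39-fold (limma adjusted p = 0.035), with 0 of 3 single culture and 3 of 3 mix culture arrays well above background. A second TNNT2 probe had the same pattern of detection and a bound of 2.07-fold but was not called (limma adjusted p = 0.0688). Both probes passed the filter through the mix arrays alone, and their p-values rest on single culture values at background. The remaining TNNT2 probe was well above background on 1 mix array alone and was not tested. The part of TNNT2 in the PDK4 values was not tested.

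**Figure D4:**
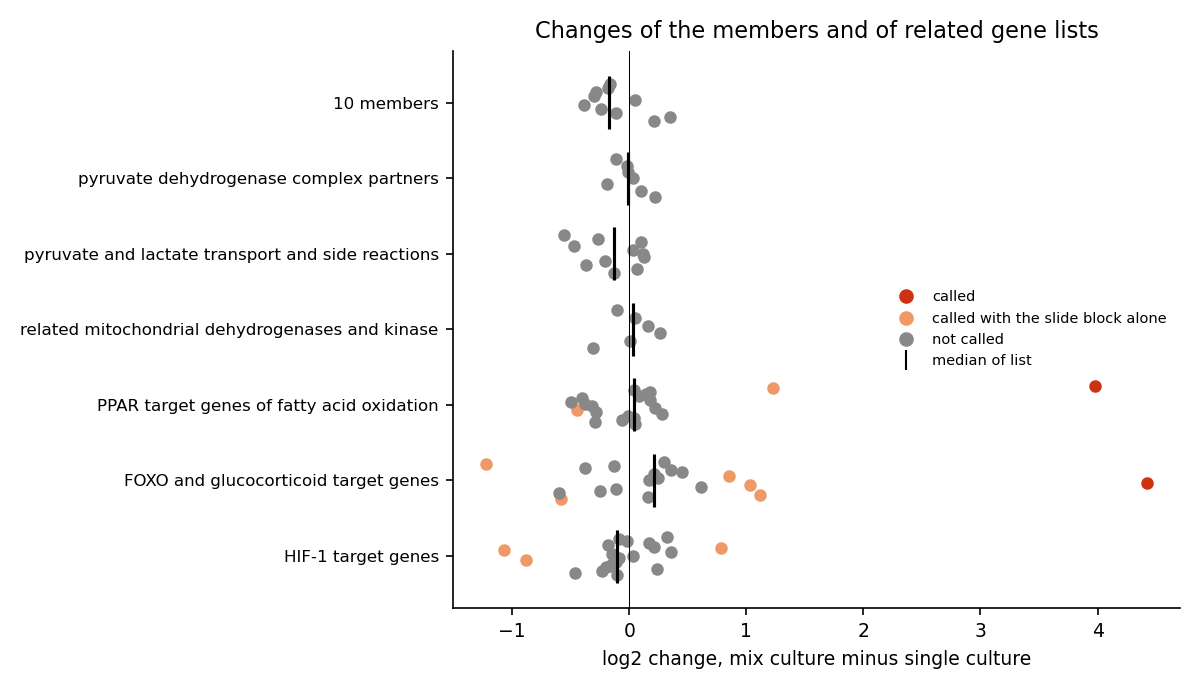
Log2 change (horizontal axis, mix culture minus single culture) of the brightest tested probe of each gene, for the 10 members and for 6 related gene lists, with black bars at the list medians. Red points are called by limma and orange points are called only with the slide as a block. The values of PPARGC1A (3.98, fitted on arrays of which the single cultures were at background) and PCK1 (4.42) stand apart, while the members lie between -0.39 and 0.35.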

How the data were processed

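Single-colour Agilent canine (V2) 4 × 44K arrays were analysed, 3 per group, with groups and replicate numbers from the sample titles. The authors deposited 1 scanner file per array holding linear intensities, which Agilent Feature Extraction (11.5.1.1 on slide 1, 12.1.1.1 on slide 2, per the file headers) had background-subtracted but not scaled between arrays. A second file that the authors deposited holds log2 values centred within each slide. Its steps are not given in the sources used here, and it served as an alternative.

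Spots flagged as outliers (5 to 9 per array) and control spots were left out, spots of a probe were averaged on the log2 scale, and the 75th percentile of each array was subtracted. Testing was limited to probes that passed well above background on all 3 arrays of at least 1 group (26623 probes, after 8 with a flagged array were removed). Mix and single culture were compared without a block by lmFit and eBayes of limma 3.58.1 (two-sided, Benjamini-Hochberg adjustment, call under 0.05), run in R 4.3.3. The script was tested on simulated data. With 3 arrays per group, their number limits the precision. The brightest tested probe stood for a gene in counts. Where a group was at background, the fold is a bound, taken against the higher, per array, of the probe's own signal and the lowest signal well above background.

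The members and lists were chosen with earlier results of these data known. Named genes were all members, the called genes of each list or else its 2 largest changes, and the 5 genes most like PDK4. HIF1A, ADM, TNNT2 and the other list genes called only with the slide as a block were added after their values were seen. All 10 member symbols matched a RefSeq gene table (UU_Cfam_GSD_1.0), used for names alone. Same-numbered arrays deviated together from their group means (correlations 0.801, 0.53 and 0.572). On slide 2, arrays whose numbers differ did so no less (0.61 and 0.632). The correlations thus do not set pairing by number apart from the shared slide, and the replicate block served as an alternative. The closing section gives the effect of the block, filter, scaling, background and left-out array alternatives.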

Additional observations from a re-analysis of the deposited data

How the results depend on the processing

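The count of called probes was 235 and moved to 1917 with the slide block, 1399 with the replicate block, 1446 with crossed pairing, 143 when signals well above background were required on all 6 arrays, 132 with normexp, 4077 in the authors' table, 998 on slide 2 alone and 8 with the methods' t-test (2590 at an unadjusted p under 0.05). Leaving out 1 array gave 92 to 247, with 92 without single culture replicate 3 or mix culture replicate 2 and 99 without mix culture replicate 3. The count of called member genes, 0, was 1 in the authors' table and 0 in each other alternative, leave-one-out included, and no member's call turned on the replicate block. The 2 called list genes became 12, 10, 10, 1, 1, 19, 6 and 0 in the order of settings given first, and stayed 2 in each leave-one-out fit. On slide 2, arrays whose numbers differ had correlated deviations as high as those of same-numbered arrays (0.61 and 0.632), so the pairing within that slide is not distinct from the slide. Signs turned for PDK3 on slide 2 alone (0.00) and without mix culture replicate 1 (0.03, leave-one-out range -0.23 to 0.03), for PDHB without single culture replicate 2 (-0.06) and mix culture replicate 1 (-0.03, range -0.06 to 0.17), and for PDK1 without mix culture replicate 1 (-0.02, range -0.02 to 0.46). The LDHA minus LDHB difference became 0.01 over the mean of the tested probes and 0.05 in the authors' table, with a leave-one-out range of -0.06 to 0.03. PDK4 stayed negative in each alternative (-0.42 to -0.12, leave-one-out included), as did PDHA1 (-0.51 to -0.24). Slide 1 alone was not among the alternatives, and there PDK4 changed by 0.06. The causes were not tested. Signal over background limited PDK4 to 1 probe.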

Other observations

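The subunits of the E1 enzyme were set against each other within each array, a comparison chosen after their values were seen. PDHA1 minus PDHB, over the brightest probe of each and relative to its single culture mean, was 0.06, -0.03 and -0.02 in single culture replicates 1, 2 and 3 and -0.48, -0.35 and -0.48 in mix culture. The groups did not overlap and differed by -0.44, or 0.739-fold (two-sided exact permutation p = 0.1, the smallest that 3 against 3 arrays allow), with SDs of 0.05 and 0.08. The difference was -0.54 on slide 1 and -0.39 on slide 2. Over the 6 pairs of PDHA1 and PDHB probes it ranged from -0.68 to -0.32, and the groups did not overlap in 4 of them. These pairs reuse the same probes, and the share of other probe pairs without overlap was not computed. PDHA1 was already the member with the most negative change, so the separation is no independent support. The pairs that overlapped were those of PDHA1 probe 3. It was -0.47 after quantile normalisation, -0.42 with normexp, -0.47 in the authors' table and -0.48 to -0.41 with 1 array left out, alternatives chosen after seeing the data. A ratio within an array shows unequal change and not which subunit moved.

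Within the authors' log2 table, the values headed mix culture 2 and mix culture 3 matched each other's scanner files (correlations of 0.999 and 0.993 over probes) rather than their own (0.457 and 0.459). Both are of the same group and slide, so no comparison between unpaired groups is affected.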
